A study of Saccharomyces cerevisiae with 160 samples.

Results

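The 44 genes described here act in ribosome biogenesis, the making of ribosomal RNA and its assembly with proteins into the small (40S) and large (60S) ribosomal subunits. They were taken from a list of named factors, and each was matched by its symbol to its probe set on the array, with 44 of 44 found and 1 probe set for each. They make up 44 of the 5716 probe sets for yeast genes, and their transcripts were followed over time in 160 arrays from 9 cultures of 5 budding yeast strains.

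In yeast, a single long RNA precursor is transcribed in the nucleolus and is modified, cut and folded while assembly factors bind to it. Box C/D particles guide chemical marks onto the RNA, the small subunit processome makes the early cuts, nucleolar factors, RNA helicases and GTPases build the large subunit, and late factors carry the subunits to the cytoplasm. The genes of these factors are known as a regulon in yeast: their transcripts go up together when growth conditions improve and go down together in nutrient limitation and stress.

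All cultures were MATa cells of the BF264-15DU background, and G1 cells of each were collected by centrifugal elutriation before the time course began. The *cdc8* strain carried the temperature-sensitive allele cdc8-ts of thymidylate kinase, had an intact *BAR1* gene and was grown in dextrose at 30 °C, a temperature at which the allele fails, so that replication stalls and the DNA replication checkpoint is engaged. The *cse4* strain carried bar1, the mutant centromeric histone under the GAL promoter (Pgal-cse4-353::TRP1) and CFP-TUB1::URA3, and was kept in galactose, where the spindle assembly checkpoint holds the cells. The *rad53* strain combined cdc8ts with rad53-1, an allele of the checkpoint effector kinase, and with bar1, a cdc20::LEU2 deletion, Pgall-CDC20::ADE2 and CFP-TUB1::URA3. The *cdc8cdc20* strain had the same alleles apart from rad53-1. The *cdc20* strain had bar1, the deletion, the Pgall-CDC20 construct and the tubulin fusion but neither cdc8ts nor rad53-1, and it is the Cdc20-depleted strain that stops at metaphase with mitotic CDK active. Cells with the Pgall construct grow in galactose and are moved to dextrose to shut *CDC20* off, whereas *cse4* cells were followed in galactose, so that for *cse4* the carbon source and the mutant histone cannot be told apart. There were 2 cultures of each strain except *cdc8cdc20*, which had 1.

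The values were array intensities, given here either as they are or as log2(intensity + 1), and the culture was the unit of replication. Array medians lay between 1020 and 1284, so the arrays were on one scale. The MATa transcripts *MFA1*, *MFA2* and *STE2* averaged 11.80 to 14.12 on the log2 scale in the 9 cultures, against 6.71 to 9.13 for *MF(ALPHA)1*, *MF(ALPHA)2* and *STE3*. *BAR1* stood at 11.37 and 11.41 in the *cdc8* cultures and at 6.29 to 7.39 in the bar1 cultures, and *CSE4* at 14.31 and 14.29 in the *cse4* cultures and at 8.01 to 8.80 elsewhere. *CDC20*, also taken as a strain mark, averaged 8.899 to 9.308 in the *cdc20*, *cdc8cdc20* and *rad53* cultures. In the *cdc8* and *cse4* cultures it averaged 8.167 to 8.724. The *CDC20* signal was thus not lower in the strains in which *CDC20* is shut off, and the reason was not tested. These values therefore do not show the depletion of Cdc20. The cdc8 and rad53-1 alleles leave no mark in these values that could be checked. RNA came from whole cultures, so a change in the share of cells at a stage and a change in transcript level per cell cannot be told apart.

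The 44 genes moved nearly as a unit, with a maximum early in every course and then a decline whose depth differed between strains. In *cdc8* cells, the mean of the 44 log2 levels was 9.90 and 9.17 at 30 min, reached its maximum of 11.70 and 11.79 at 70 min in both cultures, had gone down to 9.94 and 9.99 at 160 min, and was back at 10.85 and 10.69 at 260 min, the last array. In *cse4* cells, it was highest in the first array at 90 min (11.62 and 12.20), and the lowest means were 10.59 (replicate 1, 345 min) and 10.55 (replicate 2, 210 min). In *rad53* cells, the maximum of 12.21 at 54 min and of 12.16 at 36 min was followed by a plateau, with 11.70 and 11.67 at 108 min and 11.75 and 11.62 at 216 min. Only late in the course did the *rad53* mean decline, to 11.08 and 11.07 at 360 min. In the *cdc8cdc20* culture, the maximum of 12.23 at 36 min was followed by a fast decline to 10.77 at 180 min, and the mean then stayed between 10.54 and 10.77. In *cdc20* cells, the maximum at 60 min (12.62 and 12.53) was followed by a slow decline to 11.06 and 11.11 at 300 min, and replicate 2, which ran longer, ended at 10.51. The 2 cultures had like curves in *cdc8*, *rad53* and *cdc20*. In *cse4* they parted after 210 min: from 210 to 330 min, 31 of the 44 genes were lower in replicate 1 (52.7% of all probe sets; median difference -0.22) and 35 were higher in replicate 2 (51.8%; median 0.28). In *cdc8*, *cse4* and *cdc20* they lay farthest apart at the first array they share.

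**Figure D1:**
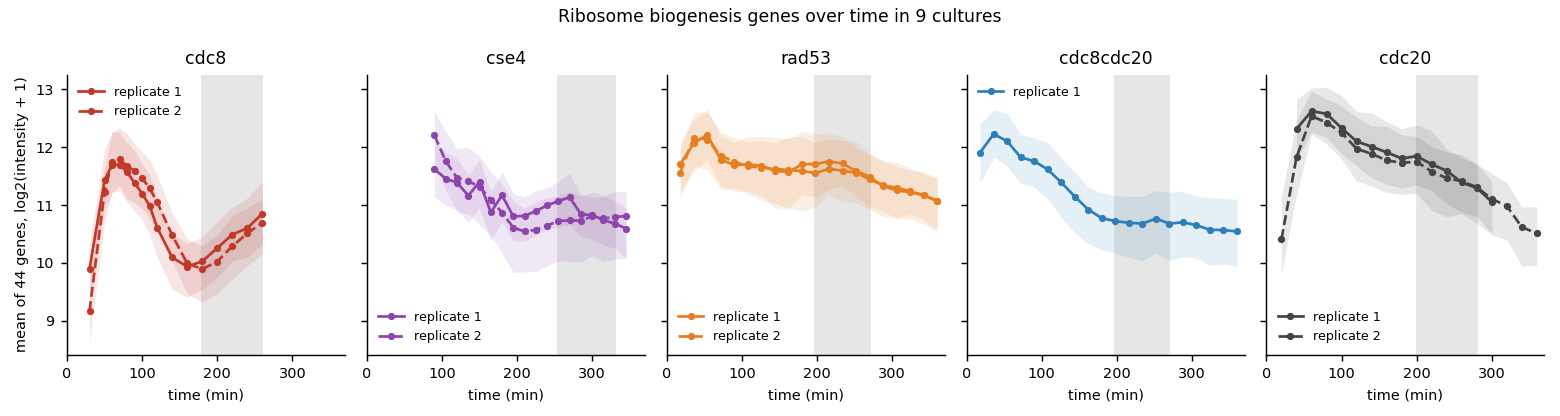
Mean of the 44 ribosome biogenesis genes, as log2(intensity + 1), against time in min for each strain, with points for arrays, solid and dashed lines for replicates 1 and 2, coloured bands from the lower to the upper quartile of the genes, and a grey bar for the window taken as the arrest. The *cdc8* cultures dip to about 9.9 and come back up, the *rad53* cultures stay above 11.4 until 270 min, and the *cdc8cdc20* culture is at 10.77 by 180 min.

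Most genes were highest early, whatever their role. In *cdc8* replicate 1, 23 genes were highest at 60 min and 21 at 70 min. In *cse4* replicate 2, all 44 were highest at 90 min, whereas in *cse4* replicate 1, 29 were highest at 90 min, 3 at 105 min, 9 at 150 min, 2 at 270 min and 1 at 285 min. In the *cdc8cdc20* culture, 40 genes were highest at 36 min and 4 at 54 min. From 30 to 60 min, 44 of 44 genes were higher in both *cdc8* cultures, by a median of 1.76 and 2.56 on the log2 scale, while 52.3% and 52.8% of all probe sets were higher. From 70 to 160 min, 44 of 44 were lower in both, with median differences of -1.79 and -1.85, against 46.7% and 54.5% of all probe sets. The way back from 160 to 260 min took 43 genes up in replicate 1 (51.7% of all probe sets were higher) and 44 in replicate 2 (59%), by a median of 0.97 and 0.70. *RRP12*, which encodes a factor for export of both subunits, made the largest early step in each culture, at 2.77 and 3.86. *NSR1*, the yeast nucleolin, which is needed for small subunit formation, had an intensity of 2125 and 1044 at 30 min in *cdc8* cells, and its highest values were 10359 at 60 min and 9696 at 70 min. These steps and times were picked after the curves had been seen and are given with no test.

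How far a transcript swung between its lowest and highest array differed between strains. The median swing over the 44 genes was 1.91 and 2.61 on the log2 scale in the *cdc8* cultures, 1.17 and 1.72 in *cse4*, 1.17 and 1.13 in *rad53*, 1.72 in *cdc8cdc20*, and 1.74 and 2.48 in *cdc20*. The courses do not begin and end at the same times, and *cdc20* replicate 2 had an array at 20 min that replicate 1 lacked, so these swings are not matched. *NMD3*, which encodes the adapter for nuclear export of the 60S subunit, followed the other genes most closely in the *cdc8* cultures, with a correlation of 0.998 and 0.999 with their mean. *NUG1*, which encodes a GTPase of 60S assembly and export, had an intensity of 723 and 481 at 30 min in *cdc8* cells and a maximum of 4489 and 4671. *HAS1*, which encodes a helicase used for both subunits, had the widest swing of the 44 genes in *rad53* cells, at 1.78 and 1.74.

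Within a culture, the median correlation of a gene with the mean of the other 43 over time was 0.983 and 0.990 in *cdc8* (16 time points), 0.910 and 0.978 in *cse4* (18), 0.912 and 0.896 in *rad53* (20), 0.988 in *cdc8cdc20* (20), and 0.974 and 0.963 in *cdc20* (14 and 18). The median over all other probe sets lay between -0.05 and 0.17. Among them, 2.94% (*rad53* replicate 1) to 25.62% (*cdc8cdc20*) had a correlation of at least 0.8 with the mean of the 44. For the ribosomal protein genes, the median was 0.778 and 0.863 in *cdc8* and 0.881 in *cdc8cdc20*, but 0.130 and 0.432 in *rad53*. Time points of a culture follow one another and are not independent, so these are descriptions only. *TIF6* was the least like the others in *cdc20* and *cse4* cells, and it encodes the yeast eIF6, a factor that keeps an unfinished 60S subunit from joining the 40S subunit. Its correlation with the others was -0.787 and 0.107 in *cdc20* and -0.282 in *cse4* replicate 1, against 0.772 in *cse4* replicate 2 and 0.868 and 0.954 in *cdc8*. In *cdc20* cells, *TIF6* was highest at 260 min (13687) and at 200 min (15336), long after the maximum of the group. *NOP1*, which encodes fibrillarin, the methyltransferase of box C/D particles, did likewise in *cdc20* cells, with maxima of 15344 at 260 min and 16280 at 160 min and a correlation of -0.617 and 0.474. *ENP2*, of the small subunit processome, was the least like the rest in *rad53* cells (0.680 and 0.602), where it was highest at 198 and 180 min. In *cse4* replicate 1, *NOP14* (0.151), *NUG1* (0.572), *PWP2* (0.594) and *HAS1* (0.603) also stood apart, against 0.826 to 0.985 for these genes in replicate 2.

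**Figure D2:**
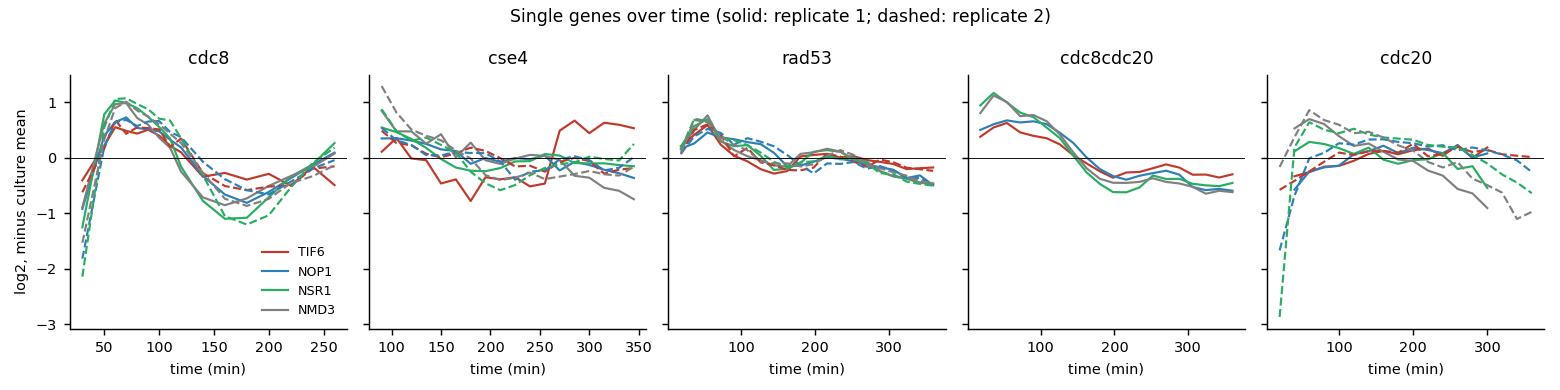
Log2 level of *TIF6*, *NOP1*, *NSR1* and *NMD3* minus the mean of the same gene over its culture, against time in min, by strain (solid line, replicate 1; dashed line, replicate 2). In *cdc20* cells, *TIF6* and *NOP1* climb while *NMD3* declines after 60 min, whereas in *cdc8cdc20* cells the 4 genes move together. The same holds in *cdc8* cells, apart from *TIF6* in replicate 1, which was lower at 260 than at 160 min (difference -0.22).

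To compare the arrests, each gene was averaged within a culture over the arrays from 180 to 260 min in *cdc8*, 255 to 330 min in *cse4*, 198 to 270 min in *rad53* and *cdc8cdc20*, and 200 to 280 min in *cdc20*. Over the 44 genes this gave means of 10.45 and 10.28 in the *cdc8* cultures, 10.88 and 10.76 in *cse4*, 11.65 and 11.55 in *rad53*, 10.71 in *cdc8cdc20*, and 11.56 and 11.50 in *cdc20*. For 44 of 44 genes, the strain means of *rad53* and *cdc20* were both above those of the other 3 strains, and *cdc8* was the lowest strain for 39 genes. *rad53* was the highest strain for 28 genes and *cdc20* for 16, and this pair was not tested against each other. These orders were not counted over all probe sets, so they are a description only. Comparisons were fitted with limma over all 5716 probe sets, with p-values adjusted by the method of Benjamini and Hochberg and called at 0.05. Several comparisons share the *cdc20*, *cdc8* or *cdc8cdc20* cultures and so are not independent of each other.

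The first comparison set the replication checkpoint arrest against metaphase arrest by Cdc20 depletion. The *cdc8* and *cdc20* strains also differ in *BAR1*, the tubulin fusion and their history in galactose. These cannot be told apart from the kind of arrest. At the arrest, 43 of the 44 genes were lower in *cdc8* than in *cdc20* cells and 0 were higher, where 33% of all probe sets were lower and 19.1% higher. The median difference was -1.16 on the log2 scale, against -0.16 over all probe sets. Among the box C/D and U3 proteins, 4 of 4 were lower. *NOP58*, a core protein of the particle, had intensities of 3689 and 3236 in *cdc8* cells and 10860 and 10028 in *cdc20* cells, 3.02-fold lower (log2 difference -1.59 ± 0.12 SE, adjusted p = 9.92e-05). Its partner *NOP56* differed least in this group, at -1.01 ± 0.15.

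Among small subunit factors, 9 of 10 were lower. *NOP14*, which is needed for 40S formation, had the largest difference (-1.37 ± 0.18). *MPP10*, a protein bound to the U3 RNA, was the 1 gene of the 44 that was not called, with intensities of 678 and 613 in *cdc8* cells and 832 and 669 in *cdc20* cells, values that overlap (-0.21 ± 0.14, adjusted p = 0.231). All 17 nucleolar 60S factors were lower, by 0.98 for *EBP2* to 1.54 for *BRX1*. *BRX1*, which binds the large subunit precursor, had intensities of 2573 and 2378 in *cdc8* cells and 7356 and 7060 in *cdc20* cells (adjusted p = 0.000303). The 5 helicases were lower by 0.80 for *SPB4* to 1.24 for *MAK5*, and the 3 GTPases by 0.98 for *NUG1* to 1.21 for *NOG1*. All 5 late factors were lower. *TIF6* had the largest difference of the 44 genes, at 2932 and 3157 in *cdc8* cells and 12623 and 14079 in *cdc20* cells, 4.38-fold lower (-2.13 ± 0.30, adjusted p = 0.00131). The cultures of the strains did not overlap for 43 genes, all lower, where 52.5% of all probe sets showed the same.

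**Figure D3:**
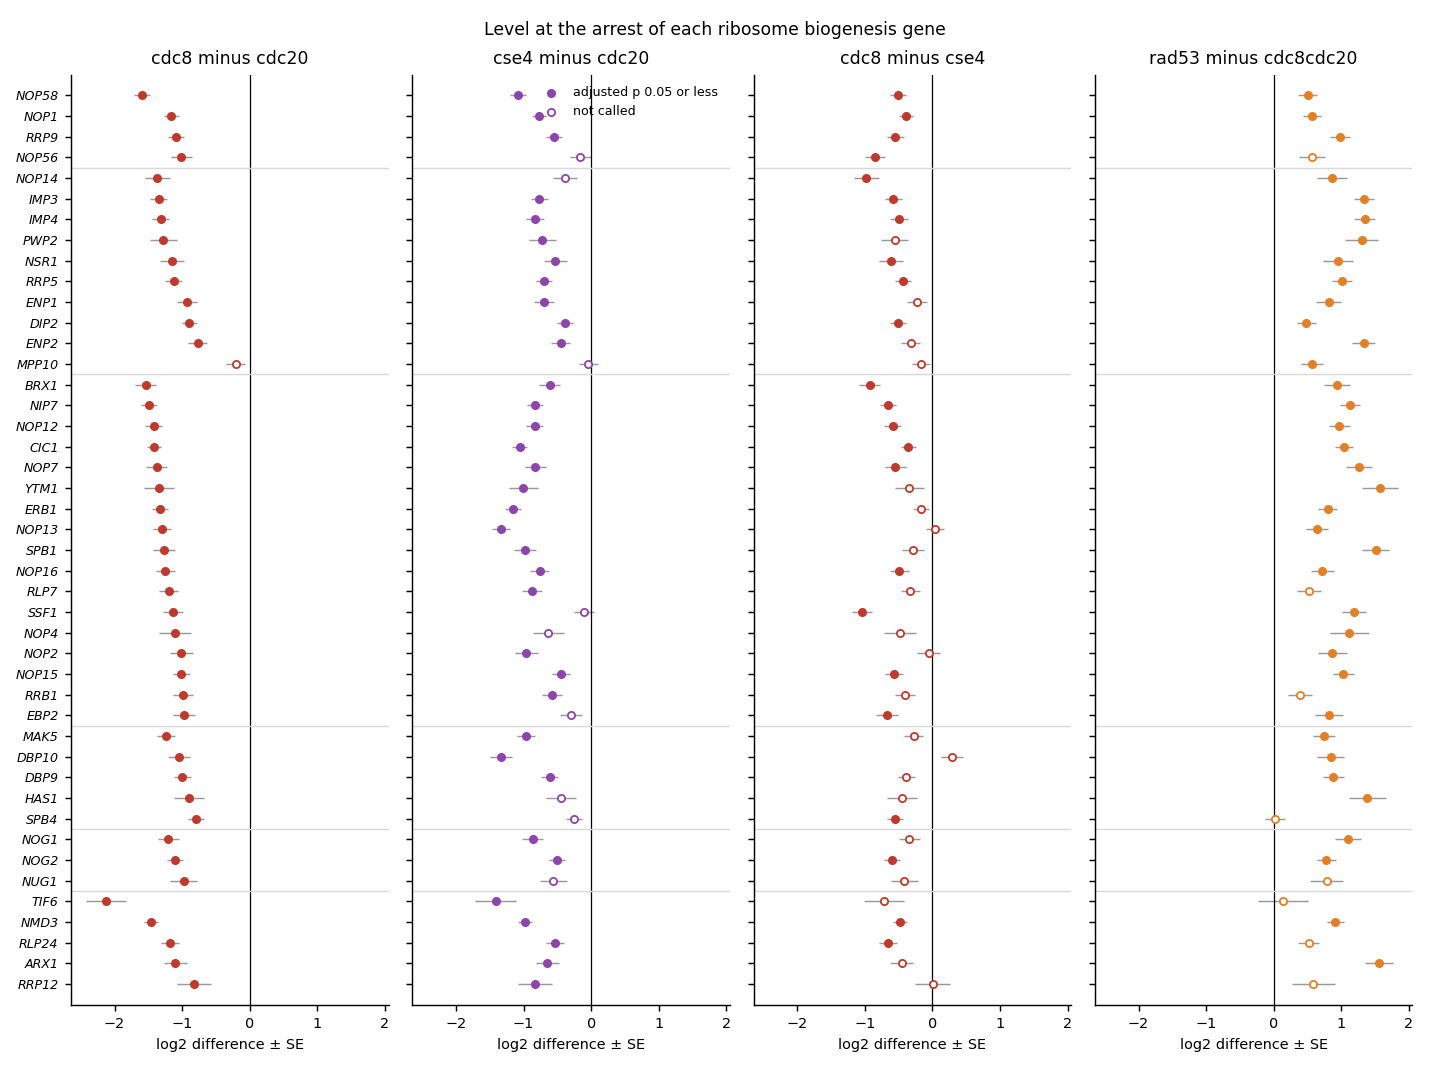
Log2 difference in the level at the arrest, with its SE, for each of the 44 genes in 4 comparisons; filled points have an adjusted p of 0.05 or less, and grey lines part the groups by role (from the top: box C/D and U3 proteins, small subunit factors, nucleolar 60S factors, helicases, GTPases, late factors). In *cdc8* minus *cdc20* all points lie left of 0 and only *MPP10* is open, whereas in *rad53* minus *cdc8cdc20* all points lie right of 0 and *SPB4* sits at 0.01.

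In the spindle checkpoint arrest, 35 of the 44 genes were lower in *cse4* than in *cdc20* cells and 0 were higher, where 27.1% of all probe sets were lower and 17.7% higher. The median difference was -0.71, against -0.14 over all probe sets. The cultures did not overlap for 41 genes, all lower, where 42.3% of all probe sets showed the same. *NOP13*, whose protein is found in 60S precursors, had intensities of 984 and 905 in *cse4* cells and 2501 and 2274 in *cdc20* cells (-1.34 ± 0.13, adjusted p = 0.000389). The helicase gene *DBP10* had 1262 and 944 in *cse4* cells and 2854 and 2661 in *cdc20* cells (-1.34 ± 0.16, adjusted p = 0.000955). *TIF6* was again the gene with the largest difference (-1.41 ± 0.30), but its *cse4* cultures lay far apart, at 3474 and 7207. The 9 genes that were not called included *NOP56* (-0.16 ± 0.15), *MPP10* (-0.04 ± 0.14), *SSF1* (-0.10 ± 0.15) and *SPB4* (-0.25 ± 0.12), from 4 of the role groups. This count rested on the window: with the last 5 arrays of each culture, in which *cdc20* cells had declined further, 10 genes were lower and the median was -0.37. It was 24 without *cdc20* replicate 1 and 22 without *cdc20* replicate 2.

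Between the checkpoint arrests, 23 of the 44 genes were lower in *cdc8* than in *cse4* cells and 0 were higher, where 19% of all probe sets were lower and 17.3% higher, with a median of -0.48. The cultures did not overlap for 36 genes, all lower, against 36.5% of all probe sets. All 4 box C/D and U3 proteins were lower, led by *NOP56* (-0.85 ± 0.15, adjusted p = 0.00506). *SSF1*, which acts in 60S assembly, had intensities of 359 and 328 in *cdc8* cells and 763 and 655 in *cse4* cells (-1.04 ± 0.15, adjusted p = 0.0019). *NOP14* (-0.98 ± 0.18) and *BRX1* (-0.93 ± 0.15) came next. *DBP10* (0.29 ± 0.16), *NOP13* (0.04 ± 0.13) and *RRP12* (0.00 ± 0.26) were the 3 genes with no negative difference, none of them called, and for each the cultures overlapped. When *cdc8* replicate 2 was left out, 3 genes were called. Leaving out *cdc8* replicate 1 gave 13, and the last 5 arrays gave 11.

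The comparison of *rad53* with *cdc8cdc20* asked what the rad53-1 allele does when replication is blocked and Cdc20 is depleted in both strains. At the arrest, 36 of the 44 genes were higher in *rad53* cells and 0 were lower, where the shares over all probe sets were 12.6% higher and 11.7% lower. The median difference was 0.87, against 0.03 over all probe sets. For 43 genes both *rad53* cultures were above the *cdc8cdc20* culture, where 46.1% of all probe sets showed the same. *YTM1*, which works in 60S assembly in a complex with *NOP7* and *ERB1*, had intensities of 4734 and 4967 in the *rad53* cultures and 1630 in the *cdc8cdc20* culture, 2.97-fold higher (1.57 ± 0.27, adjusted p = 0.00717). *ARX1*, which encodes an export factor of the 60S subunit, had 4321 and 4494 in *rad53* cells and 1494 in *cdc8cdc20* cells (1.56 ± 0.21, adjusted p = 0.00313). *SPB1*, an RNA methyltransferase, had 3450 and 3279 in *rad53* cells and 1181 in *cdc8cdc20* cells (1.51 ± 0.20, adjusted p = 0.00296). The values of these genes in *rad53* cells were also above those in the *cdc20* cultures, which were 2443 and 2879 for *YTM1*, 2333 and 2532 for *ARX1*, and 1734 and 1721 for *SPB1*.

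All 10 small subunit factors were higher, from *DIP2* (0.48 ± 0.14) to *IMP4* (1.35 ± 0.16), a partner of *MPP10* on the U3 RNA. Of the nucleolar 60S factors 15 of 17 were higher, of the helicases 4 of 5, of the box C/D and U3 proteins 3 of 4, of the GTPases 2 of 3, and of the late factors 2 of 5. *SPB4* had 842 and 799 in *rad53* cells and 812 in the *cdc8cdc20* culture, which lay between them (0.01 ± 0.15, adjusted p = 0.953). *TIF6* had 6895 and 6010 in *rad53* cells and 5863 in the *cdc8cdc20* culture (0.13 ± 0.37, adjusted p = 0.826). With 1 *cdc8cdc20* culture, its spread was taken from the other strains. The count was 18 without *rad53* replicate 1, 23 without *rad53* replicate 2, and 4 with the last 5 arrays (median 0.56).

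These strains were sampled at the same times, so the course of the difference could be read array by array. At 18 min, both *rad53* cultures were above the *cdc8cdc20* culture for 2 of the 44 genes (31.6% of all probe sets) and both below it for 37. The median difference was -0.30, against -0.02 over all probe sets. The share of all probe sets below was not counted, so the 37 is a description only. At 108 min, they were above it for 23 genes (34.5%) with a median of 0.06, and at 126 min for 35 genes (41.4%) with a median of 0.23. At 216 and 234 min, they were above it for 44 of 44 genes (45.6% and 45.5%), with medians of 0.98 and 0.99. At 306 min, this held for 44 genes (51.2%) with a median of 0.60, and at 360 min for 42 genes (47%) with a median of 0.45. Between 108 and 216 min, genes of the *rad53* cultures went both ways: 27 were higher in replicate 1 (51.1% of all probe sets) and 21 in replicate 2 (47.6%), with medians of 0.04 and -0.05. *NOP13* had the lowest difference in each culture (-0.49 and -0.62) and *PWP2*, of the small subunit processome, the highest (0.60 and 0.71). By contrast, 44 of 44 genes were lower in *cdc8cdc20* at 216 than at 108 min, by a median of 0.95, where 59.3% of all probe sets were lower. From 270 to 360 min, 44 and 43 genes were lower in the *rad53* cultures (58.4% and 45.5% of all probe sets), by a median of 0.39 and 0.36, and 36 in the *cdc8cdc20* culture (49.2%), where the median difference was -0.16. Over that span the decline was thus larger in the *rad53* cultures than in the *cdc8cdc20* culture.

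**Figure D4:**
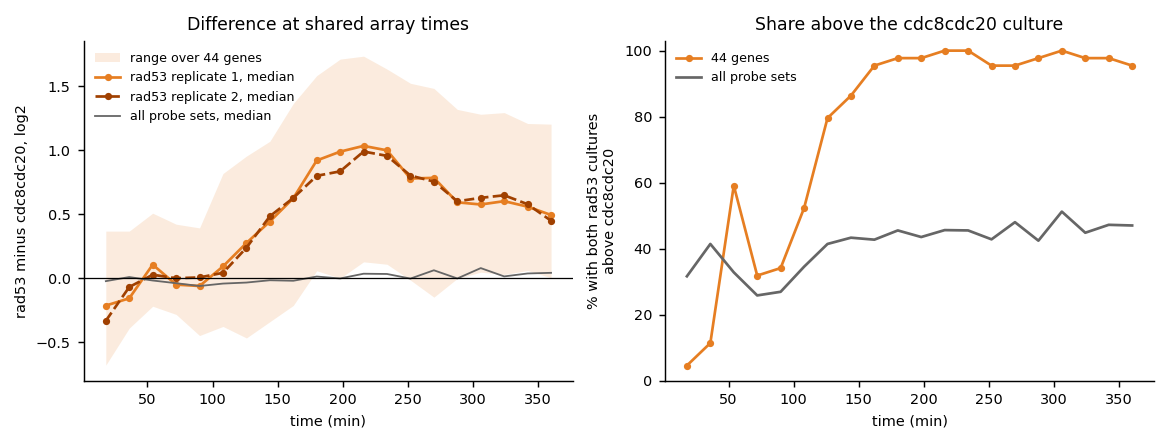
Left, log2 level in *rad53* minus *cdc8cdc20* against time in min: orange lines are the median of the 44 genes for each *rad53* culture, the band is the range of the genes, and grey is the median of all probe sets. Right, the percent of genes with both *rad53* cultures above the *cdc8cdc20* culture. The difference opens after 108 min, is near 1 at 216 to 234 min and is 0.45 at 360 min.

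The comparison of *cdc8cdc20* with *cdc8* set Cdc20 depletion on top of the replication block. Of the 44 genes, 1 was higher in *cdc8cdc20* than in *cdc8* cells and 0 were lower at the arrest, where the shares over all probe sets were 3.36% and 2.55%, with a median of 0.29, against 0.04 over all probe sets. For 39 genes the *cdc8cdc20* culture was above both *cdc8* cultures, where 49.5% of all probe sets showed the same. The gene was *NOP58*, with 7420 in the *cdc8cdc20* culture and 3689 and 3236 in the *cdc8* cultures (1.10 ± 0.14, adjusted p = 0.00742). For 42 genes the difference was positive, where 3195 of all 5716 probe sets showed the same. These strains also differ in *BAR1* and in their history in galactose, and with 1 *cdc8cdc20* culture a small difference could be missed. The count was 13 when either *cse4* culture was left out and 0 without *cdc8* replicate 2.

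Each culture was also compared with its own early arrays, the first 3 that the cultures of a strain share. These ran from 30 to 60 min in *cdc8*, 90 to 120 min in *cse4* and 40 to 80 min in *cdc20*. In *rad53* and *cdc8cdc20* they ran from 18 to 54 min. The early windows thus differ between most strains in clock time and in position in the cycle. From early to arrest, 31 of the 44 genes fell in *cdc8* cells (23.8% of all probe sets), 42 in *cse4* (32.9%), 28 in *rad53* (30.9%), 44 in *cdc8cdc20* (28.2%) and 42 in *cdc20* (31.1%), with medians of -0.48, -0.82, -0.40, -1.37 and -0.88. *ARX1* fell by 2.06 ± 0.14 in *cdc8cdc20* cells, and its change in *rad53* cells was -0.17 on average (-0.21 and -0.12). In *cdc20* cells, *SSF1* fell by 1.47 ± 0.14 and *EBP2*, of the 60S precursors, by 1.46 ± 0.11. There *NOP1* was the 1 gene that rose, by 0.43 ± 0.10 (adjusted p = 0.00509; 31.4% of all probe sets rose), and *TIF6* had a change of 0.37 ± 0.15, which was not called. The early window decided the *cdc8* value, because it holds the array at 30 min that stood before the maximum. Against that array alone, 30 genes were higher and 0 lower at the arrest, with a median of 0.77, and with that array left out, 44 were lower, with a median of -1.15. The shares of all probe sets called in these settings are not given here. In *rad53* cells, 0 genes were called against the first array alone, 14 without *rad53* replicate 1 and 9 without *rad53* replicate 2.

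The difference in this change between strains was tested in the same model. Only *rad53* and *cdc8cdc20* share their early window, so the other differences set unlike starting points against each other. The change in *rad53* minus that in *cdc8cdc20* was positive for 34 called genes and negative for 0, where 15.3% of all probe sets were positive and 15.9% negative, with a median of 0.95. *ARX1* (1.89 ± 0.17, adjusted p = 0.000372), *IMP4* (1.69 ± 0.25) and *YTM1* (1.62 ± 0.24) had the largest differences. *IMP4* had changed by 0.02 and -0.13 in the *rad53* cultures and by -1.75 in the *cdc8cdc20* culture. For *cdc8* minus *cdc20*, 17 genes were called positive (22.3% of all probe sets) and 3 negative (21.9%), and for *cse4* minus *cdc20*, 6 positive (22.5%) and 5 negative (24.3%), shares that are near or below those of all probe sets apart from the positive calls of *cdc8*. The *cdc8* result turned round with the array at 30 min left out, with 1 positive and 13 negative calls, so that its direction is set by that array. *NOP1* was among the negative calls in both, with -0.41 and -0.06 in *cdc8* cells and -0.48 and -0.48 in *cse4* cells, against 0.46 and 0.40 in *cdc20* cells.

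Repeated rise and fall was scored with a Lomb-Scargle periodogram of the linear intensities of the first 13 arrays, with test periods of 50 to 200 min. A gene passed when its lowest p in a window of these periods was at most 0.5 in both cultures. The window began at 92 min and ended below the longest test period, so the longest periods did not count. In *cdc8* cells 44 of 44 genes passed, where 61% of all probe sets did. In *rad53* cells 3 genes passed (18.2%), and in *cse4* (10.7%) and *cdc20* cells (7.75%) 0 did. The first 13 arrays of *cdc8* hold the early maximum and the low point at 160 to 180 min, that is 1 rise and 1 fall and the start of a return, so passing here does not show a repeated wave. With all time points, 17 genes passed in *cdc8* cells (21.4% of all probe sets) and 0 in *rad53* cells.

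Other genes of the pathway followed the 44. In *cdc8* against *cdc20* cells, 11 of 11 genes of RNA polymerase I and its factors, 4 of 4 box H/ACA proteins, 24 of 27 further small subunit processome genes and 31 of 33 further 60S assembly genes were lower, and 0 of these were higher, with medians of -1.09, -1.31, -0.99 and -1.08. In *cse4* against *cdc20* cells, 9, 4, 18 and 25 of them were lower, and 1 each of the further small subunit and 60S genes was higher. In *rad53* against *cdc8cdc20* cells, 7, 2, 17 and 19 of them were higher and 0 were lower, with medians of 0.71, 0.62, 0.76 and 0.74. Over all probe sets, 33% were lower and 19.1% higher in *cdc8* against *cdc20* cells. These shares were 27.1% and 17.7% in *cse4* against *cdc20* cells, and 11.7% and 12.6% in *rad53* against *cdc8cdc20* cells. The 127 cytosolic ribosomal protein genes, which encode parts of the ribosome itself, had smaller differences. Of these, 43 were lower in *cdc8* than in *cdc20* cells, a share near that of all probe sets, with a median of -0.21 (-0.16 over all probe sets). In *rad53* against *cdc8cdc20* cells 0 were higher and 2 lower, with a median of 0.06 (0.03 over all probe sets).

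A list of 12 stress-induced genes, among them the heat shock genes *HSP12*, *HSP26* and *HSP104* and the catalase gene *CTT1*, differed in the other direction at the arrest. Their mean log2 level at the arrest was 12.83 and 12.87 in the *cdc8* cultures, 12.16 and 11.53 in *cse4*, 11.52 and 11.97 in *rad53*, 12.72 in *cdc8cdc20*, and 9.84 in both *cdc20* cultures. Against *cdc20* cells, 12 of 12 were higher in *cdc8* (median 2.58; 19.1% of all probe sets) and in *cse4* (median 2.02; 17.7%). In *rad53* against *cdc8cdc20* cells, 3 were lower (11.7% of all probe sets) and 0 higher (12.6%), with a median of -0.66. Within cultures, the correlation over time between the means of the 44 genes and of the stress list lay between -0.977 in *cdc8cdc20* and -0.482 in *cdc20* replicate 1. The *rad53* cultures had ribosome biogenesis means next to those of the *cdc20* cultures, with stress list means that overlapped those of the *cse4* cultures. From early to arrest, 9 of the 12 rose in *cdc8* (22.6% of all probe sets), 9 in *cse4* (29.1%), 8 in *rad53* (26.5%) and 11 in *cdc8cdc20* (24.3%), and 0 fell. In *cdc20* cells 4 rose (31.4% of all probe sets) and 6 fell (31.1%), with a median of 0.09. The part of a stress response in the results was not tested.

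**Figure D5:**
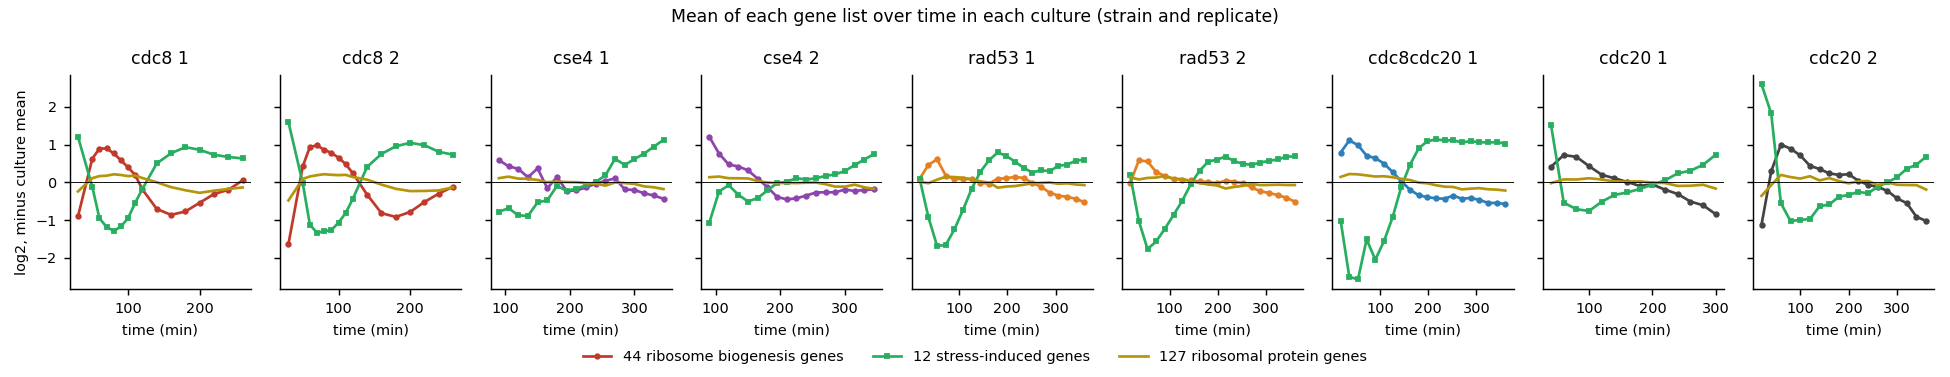
Mean log2 level of the 44 ribosome biogenesis genes (circles), 12 stress-induced genes (squares) and 127 ribosomal protein genes (plain line) in each culture, minus the mean over that culture, against time in min. In the *cdc8* and *cdc8cdc20* cultures the curves of the first and second list mirror each other, with correlations of -0.898, -0.952 and -0.977, while the ribosomal protein genes move far less.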

How the data were processed

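RNA was hybridized to Affymetrix arrays (Yeast Genome 2.0). The intensities deposited are linear; the authors normalized them by invariant set, with no background correction, and summarized them by the dChip model (affy 1.32.1). The genome build behind the probe annotation was not given in the sources used here. Controls (184 of 5900 probe sets) were dropped; 5498 of the remaining 5716 carried 1 gene symbol. No further scaling was done, and log2(intensity + 1) was averaged over the arrays of a window in each of 9 cultures. Their number limits the precision. One limma fit (limma 3.58.1, R 4.3.3) held all cultures with 4 residual degrees of freedom. The study describes the 2 cultures of a strain as independent or experimental replicates. For each probe set, p-values rest on the spread between cultures of a strain, pooled over all strains and drawn towards that of all probe sets. The periodogram, tables and figures used Python 3.11.15, numpy 2.4.6, pandas 2.3.3 and matplotlib 3.10.9. Both methods were tested on simulated data. The members and lists were chosen with earlier results of these data known. Named genes were, per comparison and role, those with the largest and smallest difference, with culture values for the 3 largest in each direction; *NSR1*, *NOP1*, *NMD3* and the brightest gene per role for profiles; and genes noticed in the curves, chosen after their values were seen. The last arrays of both *cse4* cultures carry 245 min in the title and 345 min in the source label, and were taken as 345 min, after the arrest window; the description of the replicate 2 array names another arrest, but its *CSE4* level (14.65) was that of *cse4* cells. Alternatives are given below.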

Additional observations from a re-analysis of the deposited data

Results flagged for a closer look

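The change from early to arrest differed between strains by a test of the difference itself in 3 comparisons. In *rad53* minus *cdc8cdc20*, 34 genes were higher (15.3% of all probe sets), with *ARX1* at 1.89 and *IMP4* at 1.69 on the log2 scale. In *cdc8* minus *cdc20*, 17 genes were higher (22.3% of all probe sets) and 3 lower (21.9%). *ENP2* was at 1.316, *DBP9* at 1.00, *TIF6* at -0.85 and *NOP1* at -0.66. With the earliest *cdc8* array left out, most calls in *cdc8* minus *cdc20* were negative, so the direction of this result is set by that array. In *cse4* minus *cdc20*, 6 genes were higher (22.5% of all probe sets) and 5 lower (24.3%), shares of the 44 genes below those of all probe sets. *SSF1* was at 0.79, *EBP2* at 0.67, *NOP1* at -0.91 and *ERB1* at -0.45.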

How the results depend on the processing

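Over the alternatives, 162 counts of called genes stayed within 1.5 times their main value, 27 were lower by more than that, 15 higher by more, and 5 changed direction. Quantile normalization, a pseudocount of 32, omission of dim probe sets, the clock window and the replicate block moved no count by more than 1.5 times and turned none. With the replicate block, 43 genes were called in *cdc8* minus *cdc20*, 37 in *cse4* minus *cdc20* and 36 in *rad53* minus *cdc8cdc20*; the replicate differences of the strains correlated between -0.28 and 0.21, so the numbers were not taken as pairs. With the last 5 arrays, the level counts were 10 for *cse4* minus *cdc20*, 11 for *cdc8* minus *cse4* and 4 for *rad53* minus *cdc8cdc20*, 43 genes changed in *rad53*, and the difference in change counted 36 for *cdc8* and 17 for *cse4* minus *cdc20*. With the first shared array as early, 30 genes were higher in *cdc8* (median 0.77), 0 changed in *rad53* and 25 in *cdc20*, and the difference in change counted 40 for *cdc8* minus *cdc20*, 13 for *cse4* minus *cdc20* (all lower, median -0.63) and 15 for *rad53* minus *cdc8cdc20*. Single genes that changed sign there were *NOP56* (0.60), *NOP1* (0.99), *NOG2* (0.26), *NUG1* (1.67), *ARX1* (0.67), *RRP12* (1.83), *SSF1* (0.20), *RRB1* (1.59), *HAS1* (0.32), *DBP10* (0.79) and *PWP2* (0.57) in *cdc8*, *RRP9* (0.029) in *rad53*, *HAS1* (0.037) in *cdc20*, and *NOP1* (0.20) and *ARX1* (1.06) in *cdc8* minus *cdc20*. With the *cdc8* array at 30 min left out, a choice made after seeing the data, the difference in change for *cdc8* minus *cdc20* counted 14 genes (median -0.27), *ENP2* was at -0.70 in *cdc8*, and *NOP56* (-0.61), *YTM1* (-0.69) and *MAK5* (-0.11) changed sign.

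Leaving out 1 culture at a time, the level counts ranged from 40 to 43 for *cdc8* minus *cdc20*, 22 to 37 for *cse4* minus *cdc20*, 3 to 32 for *cdc8* minus *cse4*, 18 to 41 for *rad53* minus *cdc8cdc20* and 0 to 13 for *cdc8cdc20* minus *cdc8*. The change counts ranged from 12 to 37 in *cdc8* (12 without *cdc8* replicate 1, 19 without *cdc8* replicate 2), 39 to 44 in *cse4*, 9 to 33 in *rad53* and 34 to 44 in *cdc20*, and stayed at 44 in *cdc8cdc20*. The difference in change ranged from 7 to 31 for *cdc8* minus *cdc20* (7 and 12 without *cdc20* replicates 1 and 2, 9 and 8 without *cdc8* replicates 1 and 2, 31 without either *cse4* culture), 2 to 18 for *cse4* minus *cdc20* (7 without *cdc20* replicate 2 or either *rad53* culture, 6 without either *cdc8* culture, 14 and 18 without *cse4* replicates 1 and 2; median -0.07 without *cdc20* replicate 1, -0.21 without *cse4* replicate 1 and 0.16 without *cse4* replicate 2) and 24 to 43 for *rad53* minus *cdc8cdc20*. *TIF6* changed sign in *cse4* without *cse4* replicate 2 (0.24), against -0.47 without *cse4* replicate 1. A strain left with 1 culture was assumed to vary like the others. The periodogram passed 1 to 3 genes in *cdc20*, 44 in *cdc8*, 1 to 7 in *cse4* and 6 to 12 in *rad53* by 1 culture alone, and 17 in *cdc8* and 0 in *rad53* by all time points. Apart from the settings that change which arrays or cultures enter, the cause of these shifts was not tested. Counts of called genes in the alternatives, here and above, stand without the share of all probe sets called in the same setting. A loss of calls particular to the 44 genes thus cannot be told from a general one. Intensities are relative values after invariant set normalization and carry no depth.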
